A study of Homo sapiens with 4 samples.

Results

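Adhesion receptors of leukocytes and their intracellular activators were examined in NB4-R4 cells, with 45 genes chosen by symbol: integrin chains, selectins and a selectin ligand, Ig-type adhesion molecules, the hyaluronan receptor CD44, tetraspanins and integrin activators. Of the 45, 43 had an array feature annotated with their symbol alone, among 17687 genes measured in all. ITGA1 and TLN1 had none and were not analysed here. NB4-R4 is an established human acute promyelocytic leukaemia line, a single subclone of NB4 that the labels describe as resistant to all-trans retinoic acid. MK-8776 is an inhibitor of the checkpoint kinase CHK1. The treated group received 4 µM MK-8776 for 96 h and the control group its vehicle DMSO for as long, both grown in the same serum-containing medium, with 2 expression arrays each from RNA of live cells. The arrays of a group are biological replicates by the labels, which do not say whether the cultures were independent. The p-values therefore rest on the spread among these arrays alone, which may be partly technical.

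Integrins are heterodimers of an alpha and a beta chain that bind matrix proteins or counter-receptors on other cells. Talin and kindlin bind the beta chain's cytoplasmic tail and switch the receptor to its active form, and adaptors such as paxillin and vinculin join it to actin. In leukocytes, selectins and their glycosylated ligand PSGL-1 mediate rolling on the vessel wall, and integrins such as LFA-1, Mac-1 and VLA-4 then mediate firm adhesion to ICAM and VCAM molecules.

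After MK-8776, 5 of the 43 measured adhesion genes fell and 1 rose. SELPLG, ITGAL, ITGA2B, ICAM4 and ITGA4 were lower, by 3.90-fold, 3.19-fold, 2.93-fold, 2.56-fold and 2.03-fold, and the tetraspanin gene CD63 was 2.21-fold higher (n = 2 arrays per group). The integrin genes that fell all encode alpha chains, and of the 8 beta chain genes 0 passed (limma, 0 at an unadjusted p under 0.05). A gene was said to rise or fall when its adjusted p was under 0.05 in limma, with Benjamini-Hochberg adjustment over all 17687 genes. In the same test 3.69% of all genes passed, 1.66% upward and 2.02% downward, against 14.0% of the members, 2.33% upward and 11.6% downward. The members were chosen with earlier results of these data known, so these shares are no test of the set. In a fit of genes above the median level, 404 of 9180 genes rose and 538 fell, beside 2 and 5 of 27 members. The members had a median change of 0.025 on the log2 scale (-0.01 after quantile normalization), beside 0.005 over all genes, with 22 higher and 21 lower whatever the p. Their median absolute change was 0.425, beside 0.245 over all genes. With any 1 of the 4 arrays left out, DMSO replicate 1 or 2 or MK-8776 replicate 1 or 2, the 6 genes kept their sign. Such fits leave 1 array in a group, and their calls are given below beside those over all genes.

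Expression is given as log2 RMA values, where RMA is the authors' normalization between arrays. A change is MK-8776 minus DMSO on that scale, given with its standard error (SE). Levels of different genes are not compared, since features differ in their response. The dim end of the scale was taken as values under the lower quartile of the table, 3.97. Because the RNA is pooled from the live cells of a culture, fewer cells with a transcript and less transcript per cell cannot be told apart.

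Upstream windows are shown for ICAM1 and ICAM4, which lie next to each other and had changes of opposite sign, and for ITGA2B, the gene of the platelet integrin alpha chain that fell. Each is the 250 bases before the gene's start in RefSeq (GRCh38.p14), written 5′ to 3′ on the gene's strand. They are ICAM1 at chr19:10270870-10271119 (plus strand), ICAM4 at chr19:10286705-10286954 (plus strand) and ITGA2B at chr17:44389650-44389899 (minus strand). Capitals mark matches, on either strand, to an exact form of the letters bound by NF-kB, GGAAATTCC. They also mark those of the box that sets the start of many genes, TATAAA. The letters GGGCGG, bound by SP1, and a site of blood cell GATA factors, AGATAA, were searched in the same way.
ICAM1: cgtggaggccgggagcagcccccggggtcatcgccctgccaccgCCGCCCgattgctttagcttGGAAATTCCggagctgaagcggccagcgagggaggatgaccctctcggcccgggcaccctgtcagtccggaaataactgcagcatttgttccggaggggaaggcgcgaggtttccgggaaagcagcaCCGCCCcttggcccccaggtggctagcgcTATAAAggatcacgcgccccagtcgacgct
ICAM4: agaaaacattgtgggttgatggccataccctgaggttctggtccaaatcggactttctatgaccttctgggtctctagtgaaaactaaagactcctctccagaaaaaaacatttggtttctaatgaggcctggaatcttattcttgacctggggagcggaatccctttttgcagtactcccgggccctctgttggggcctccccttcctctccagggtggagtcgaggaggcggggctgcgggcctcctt
ITGA2B: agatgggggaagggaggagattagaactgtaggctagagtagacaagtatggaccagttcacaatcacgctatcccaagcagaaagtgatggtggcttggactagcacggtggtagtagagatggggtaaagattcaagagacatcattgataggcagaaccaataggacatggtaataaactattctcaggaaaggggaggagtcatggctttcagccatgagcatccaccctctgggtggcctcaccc

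The ICAM1 window held 4 matches, namely 1 to GGAAATTCC, 1 to TATAAA and 2 to GGGCGG on the opposite strand, written CCGCCC. Among 35116 windows of this length before RefSeq gene starts, where a gene may have several, 0.413% held GGAAATTCC, 10.7% TATAAA, 42.6% GGGCGG and 9.17% AGATAA. The ICAM4 and ITGA2B windows held 0 matches to these letters, which says nothing of the factors themselves. Variants of the letters were not searched, so the shares and the lack of matches hold for these exact letters only. The ITGA2B window holds TGATAG, which shares the core GATA with AGATAA and differs only at its first and last base. Its 0 matches therefore do not mean that it lacks a GATA site. A match describes letters only, since binding was not measured. The set of upstream windows had an entry for 32 of the 45 genes, and none for SELPLG or ITGAL.

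SELPLG encodes PSGL-1, the mucin on leukocytes that selectins bind (chromosome 12, 108621895 to 108633894, GRCh38). It measured 10.24 and 10.51 on the DMSO arrays and 8.17 and 8.65 on the MK-8776 arrays. Both MK-8776 arrays were lower than both DMSO arrays, with a gap several times the difference within a group. The change was -1.965 (SE 0.24, adjusted p = 0.00724, limma). The non-coding RNA gene LOC105369968 overlaps SELPLG by 5249 bases in the gene table. The selectin genes themselves, SELE and SELP, were under the lower quartile in both groups, between 2.75 and 3.4 on all arrays, so that little can be said of them. Binding of selectins to PSGL-1 depends on its sialylated and fucosylated glycans, and for P-selectin also on sulphated tyrosines. Of 16 measured genes for these modifications and for other selectin ligand scaffolds, there were 1 fall and 0 rises, and the median change was -0.115. The gene that fell was ST3GAL4, a sialyltransferase, at 11.32 and 11.45 in DMSO and 9.65 and 9.86 in MK-8776, which gives a log2 change of -1.63 (SE 0.21, adjusted p = 0.00808, limma).

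ITGAL encodes the alpha chain of LFA-1, the integrin that pairs with the ITGB2 product and binds ICAMs (chromosome 16, 30472742 to 30523185). Its values were 7.78 and 7.94 in DMSO and 6.24 and 6.13 in MK-8776. The groups did not overlap, and the change of -1.675 (SE 0.21, adjusted p = 0.00724, limma) had a 95% interval of -2.15 to -1.20. An antisense RNA gene, ITGAL-AS1, overlaps ITGAL by 1125 bases. ITGB2, the common beta chain gene of LFA-1, Mac-1 and the ITGAX and ITGAD integrins, measured 10.58 and 11.07 in DMSO and 10.76 and 11.74 in MK-8776. Here the groups overlapped, and the change of 0.425 did not pass (95% interval -0.34 to 1.19, adjusted p = 0.571, limma). Whether ITGAL and ITGB2 differed in their change was not tested.

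The other alpha chains that pair with ITGB2 did not pass, and their changes differed in sign. ITGAM, the Mac-1 alpha chain gene and a marker of myeloid maturation, measured 9.42 and 10.03 in DMSO and 8.86 and 9.21 in MK-8776 (change -0.69, adjusted p = 0.208, limma). ITGAX, the CD11c gene, was at 8.77 and 9.05 in DMSO and 8.72 and 9.37 in MK-8776, overlapping groups with a change of 0.135. ITGAD, the CD11d gene, measured 5.51 and 4.86 in DMSO and 5.86 and 5.67 in MK-8776 (change 0.58, adjusted p = 0.278, limma). ITGAM, ITGAX and ITGAD stand in a row on chromosome 16, and ITGAL lies 736789 bases before ITGAM. The 3 genes of the row are close paralogs, so how much signal each feature takes from the others is uncertain.

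**Figure D1:**
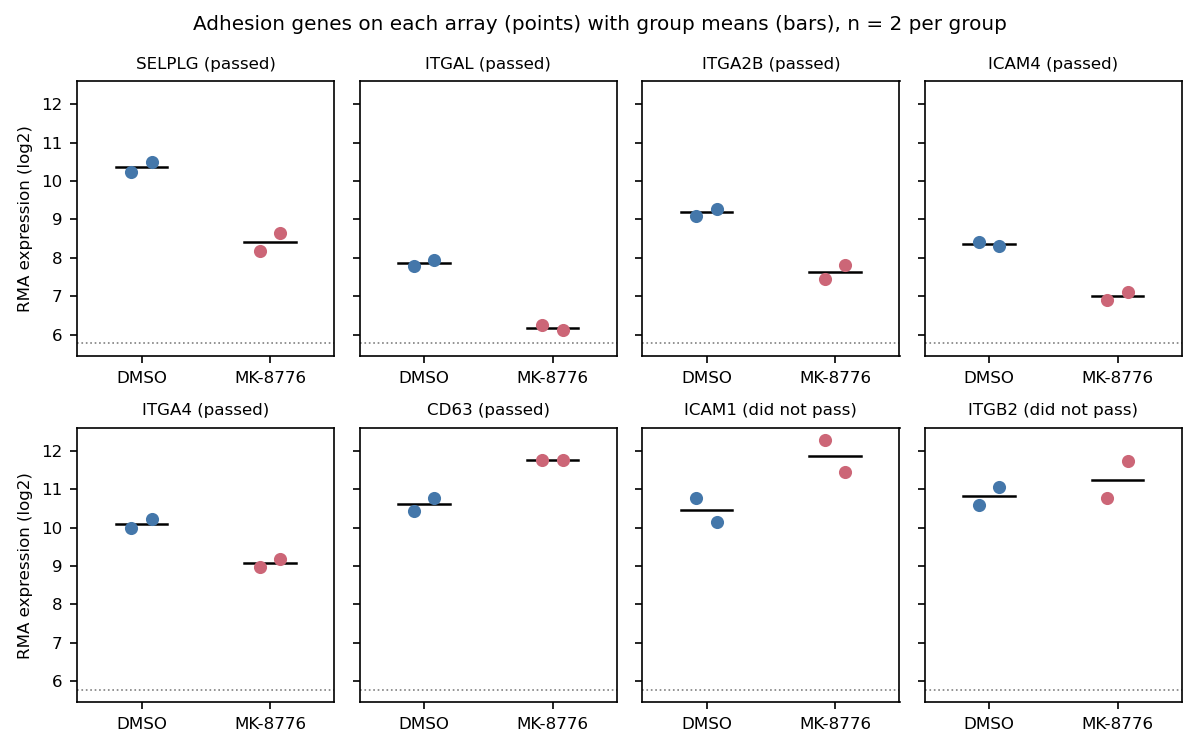
RMA expression (log2, y axis) on each of the 2 DMSO and 2 MK-8776 arrays (points) with group means (bars) for the 6 genes that passed, ICAM1 and ITGB2; the dotted line is the median of all values, 5.77. In the 6 genes that passed and in ICAM1 the groups do not overlap, whereas in ITGB2 the lower MK-8776 value, 10.76, lies between the DMSO values, 10.58 and 11.07.

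Among the alpha chains that pair mainly with ITGB1 or ITGAV partners, ITGA4 fell and the other 10 measured did not pass. ITGA4, which encodes the alpha chain of VLA-4, a receptor for VCAM-1 and fibronectin (chromosome 2, 181457205 to 181538940), measured 9.98 and 10.22 in DMSO and 8.98 and 9.18 in MK-8776. The arrays of the groups lay apart by more than their spread, with a change of -1.02 (SE 0.21, adjusted p = 0.0407, limma). The call was close to the threshold and missed it after quantile normalization (adjusted p = 0.05003), over all features (0.0503) and with a replicate block (0.0704). The gene table has ITGA4 overlapping CERKL by 2269 bases, and CERKL had a change of 0.195. Both beta chains that pair with ITGA4 did not pass. ITGB1 was at 11.98 and 12.33 in DMSO and 12.35 and 12.48 in MK-8776 (change 0.26, 95% interval -0.25 to 0.77). ITGB7 was at 4.19 and 4.82 in DMSO and 5.10 and 5.00 in MK-8776 (change 0.545, adjusted p = 0.297, limma). VCAM1, the endothelial counter-receptor of VLA-4, had a change of 0.435 (adjusted p = 0.333, limma).

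The laminin receptor chain gene ITGA6 measured 8.39 and 8.53 in DMSO and 7.50 and 7.98 in MK-8776, a change of -0.72 (adjusted p = 0.146, limma). ITGA7, another laminin receptor chain gene, was at 4.97 and 4.96 in DMSO and 4.45 and 4.19 in MK-8776 (change -0.645, adjusted p = 0.146, limma). In both genes the MK-8776 arrays were the lower ones without overlap, but neither passed. Another laminin-binding chain gene, ITGA3, had the opposite sign, with 4.61 and 4.13 in DMSO and 5.65 and 4.66 in MK-8776 (change 0.785, adjusted p = 0.257, limma). The MK-8776 arrays of ITGA3 differed by more from each other than the lower of them did from DMSO. ITGA11, a collagen receptor chain gene, measured 9.04 and 8.97 in DMSO and 9.63 and 9.82 in MK-8776 (change 0.72, adjusted p = 0.106, limma). The fibronectin receptor chain gene ITGA5 had a change of -0.045, but its DMSO arrays, at 10.78 and 11.78, enclosed both MK-8776 values, 11.29 and 11.18, and left a 95% interval of -0.77 to 0.68. ITGAV, whose product pairs with several beta chains, had a change of 0.245, and ITGA2, ITGA8, ITGA9 and ITGA10 had changes between -0.055 and 0.25. ITGAE, whose product pairs with that of ITGB7 on mucosal lymphocytes, had a change of 0.325 (adjusted p = 0.585, limma).

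ITGA2B encodes the alpha chain of the platelet fibrinogen receptor (chromosome 17, 44372181 to 44389649). It measured 9.10 and 9.28 in DMSO and 7.46 and 7.82 in MK-8776. Both MK-8776 arrays were far below both DMSO arrays, with a change of -1.55 (SE 0.22, adjusted p = 0.0120, limma). ITGB3, whose product is its only known partner chain, lay under the lower quartile in both groups, between 3.30 and 3.73. Of 7 measured platelet and megakaryocyte markers other than ITGA2B, 0 fell, 1 rose and 6 did not pass. The gene that rose was PPBP, a platelet chemokine gene, from 4.48 and 4.5 to 5.81 and 6.81 (change 1.82, adjusted p = 0.0235, limma, and 0.0564 with a replicate block). The summed level of the 7 ran from 7.42 to 7.46 in DMSO and from 7.67 to 8.16 in MK-8776 (log2 of the summed linear values), and TUBB1 and GP9 lay under the lower quartile in both groups. The part of these markers in the ITGA2B result was not tested.

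Of the 8 beta chains measured, none passed in limma, and 0 had an unadjusted p under 0.05. Whatever the p, 6 were higher and 2 lower, with changes from -0.13 for ITGB5 to 0.545 for ITGB7 and a median of 0.38. Without MK-8776 replicate 2, ITGB2 and ITGB6 were both at -0.065. The arrays did not overlap in 4 of the 8, where 48.2% of all genes had no overlap. ITGB3, ITGB4, ITGB6 and ITGB8, which encode partner chains for matrix ligands, lay under the lower quartile in both groups, so the lack of a call says little there. Of the 17 alpha chains, by comparison, 3 fell, 0 rose and 14 did not pass, with a median of -0.04 and a range from -1.675 to 0.785. The difference between alpha and beta chains was not tested.

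**Figure D2:**
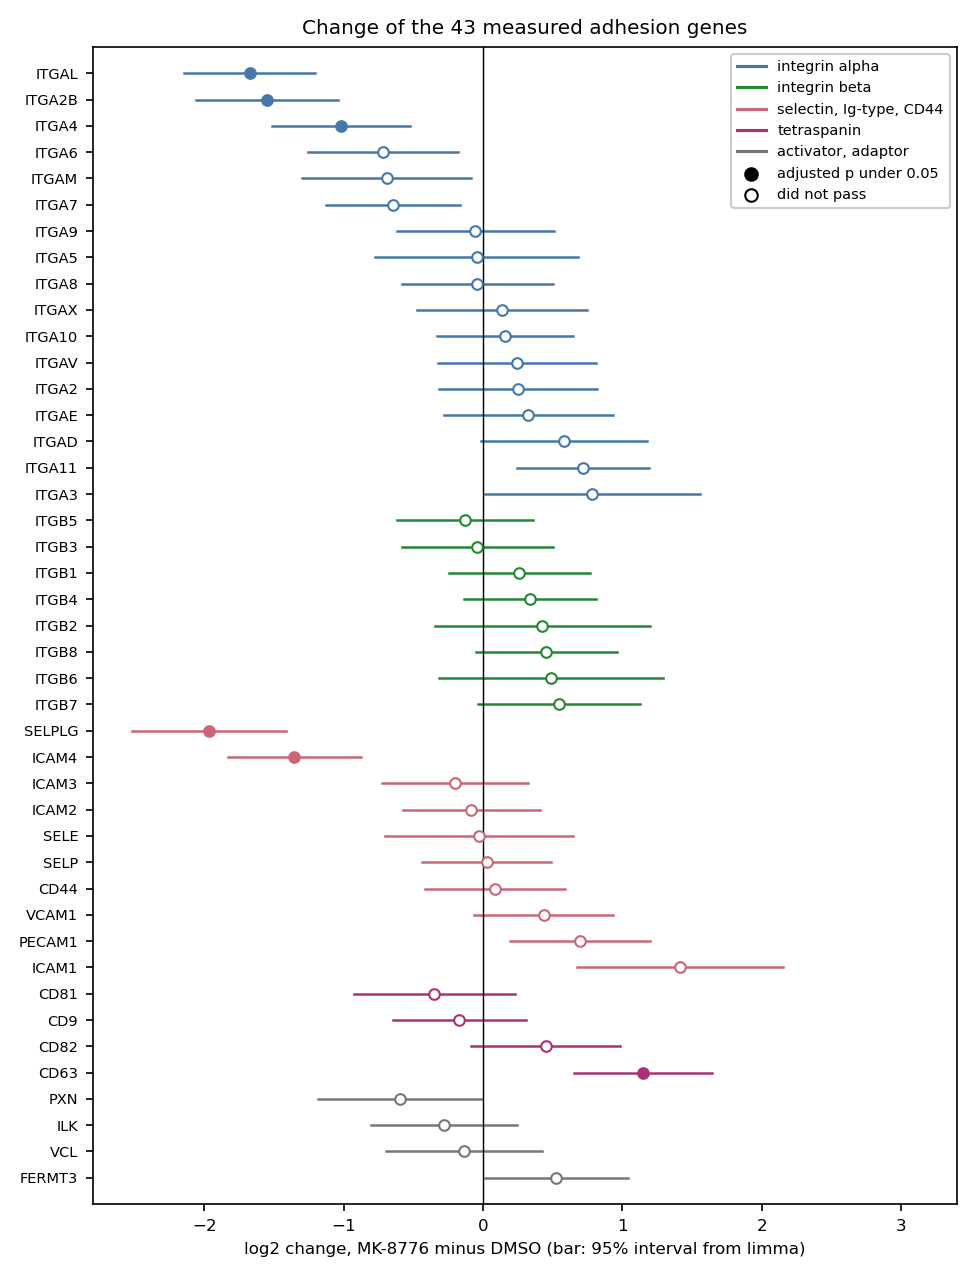
Log2 change (x axis, MK-8776 minus DMSO) with its 95% interval from limma for each of the 43 measured genes, coloured by family; filled points passed at an adjusted p under 0.05. SELPLG at -1.965, ITGAL, ITGA2B, ICAM4 and ITGA4 lie left of 0, CD63 at 1.145 lies right of it, and all 8 beta chains are open points.

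ICAM4 encodes the Landsteiner-Wiener glycoprotein, an Ig-type ligand of several integrins best known on red cells (chromosome 19, 10286955 to 10288520). It measured 8.41 and 8.32 in DMSO and 6.91 and 7.11 in MK-8776, and thus fell by 1.355 (SE 0.21, adjusted p = 0.0149, limma). ICAM1, the inducible endothelial and leukocyte ligand of LFA-1 and Mac-1, ends 339 bases before ICAM4 begins (10271120 to 10286615). Its values were 10.76 and 10.14 in DMSO and 12.27 and 11.45 in MK-8776. Both MK-8776 arrays of ICAM1 were above both DMSO arrays, but the spread within each group was wide. The change of 1.41 (SE 0.32, 95% interval 0.67 to 2.15) missed the threshold (adjusted p = 0.0545, limma). It passed with a variance trend (adjusted p = 0.0104, limma), among genes above the median level (0.0371) and with a replicate block (0.0447), and the change ran from 1.0 to 1.82 when 1 array was left out. Their coding strand is the same in the RefSeq table. An antisense RNA gene, ICAM4-AS1, covers all of ICAM4 and the last 815 bases of ICAM1 in the gene table. The long non-coding RNA gene LIMASI overlaps 12331 bases of ICAM1, and whether the features separate the strands is not given in the sources used here.

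The remaining Ig-type genes did not pass. PECAM1, which encodes a homophilic receptor of leukocytes, platelets and endothelium, measured 9.52 and 9.59 in DMSO and 10.43 and 10.07 in MK-8776 (change 0.695, adjusted p = 0.135, limma). ICAM3, the resting leukocyte ligand of LFA-1, had a change of -0.20 (95% interval -0.72 to 0.32), and ICAM2 one of -0.085 (95% interval -0.58 to 0.41). The groups overlapped in CD44, at 12.39 and 12.52 in DMSO and 12.38 and 12.70 in MK-8776 (change 0.085, 95% interval -0.41 to 0.58).

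Tetraspanins organise integrins and other receptors in membrane domains. CD63, the tetraspanin of late endosomes, lysosomes and primary granules (chromosome 12, 55723535 to 55730041), measured 10.44 and 10.77 in DMSO and 11.75 and 11.75 in MK-8776. The change of 1.145 (SE 0.22, adjusted p = 0.0297, limma) was larger than the spread in either group, and it missed the threshold with a replicate block (0.0663). The CD63 gene overlaps RDH5 by 1171 bases in the gene table, and RDH5 had a change of -0.135. It also overlaps the non-coding RNA genes BLOC1S1-RDH5 by 1208 bases (change 0.255) and CD63-AS1 by 948 bases (not measured). CD82 had a change of 0.45, CD81 one of -0.35 and CD9 one of -0.17, and none of these 3 passed. The narrow values of CD9 were 11.49 and 11.72 in DMSO and 11.45 and 11.42 in MK-8776. Among 17 other measured tetraspanin and partner genes there were 1 fall and 0 rises, and their median change was -0.10. TSPAN13 fell from 7.30 and 7.15 to 5.88 and 5.53, a change of -1.52 (adjusted p = 0.0122, limma).

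The 4 measured activators and adaptors did not pass. FERMT3, the kindlin of blood cells, measured 9.97 and 10.22 in DMSO and 10.78 and 10.46 in MK-8776 (change 0.525, adjusted p = 0.255, limma). PXN, the paxillin gene, was at 6.95 and 7.21 in DMSO and 6.78 and 6.19 in MK-8776 (change -0.595, adjusted p = 0.258, limma). These 2 genes had changes of opposite sign, without overlap between the groups. ILK, the integrin-linked pseudokinase gene, had a change of -0.28 (95% interval -0.80 to 0.24), and VCL, the vinculin gene, one of -0.135 (95% interval -0.70 to 0.43).

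**Figure D3:**
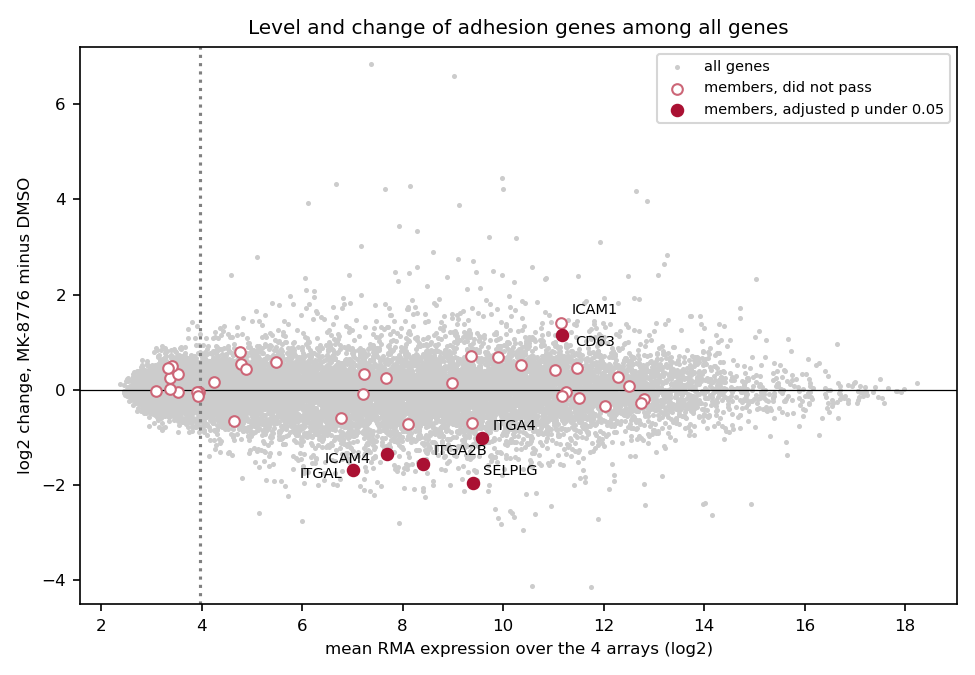
Log2 change (y axis) against mean RMA expression over the 4 arrays (x axis, log2) for all 17687 genes (grey) and the 43 members (red); the dotted line is the lower quartile, 3.97. The 6 members that passed all lie well right of the dotted line, while 8 members lay under the quartile in both groups.

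Dimness and overlap were counted over the whole set. ITGA2, ITGA9, ITGB3, ITGB4, ITGB6, ITGB8, SELE and SELP were the 8 genes under the lower quartile in both groups. The groups did not overlap in 24 of the 43 members, 14 of them higher and 10 lower in MK-8776, which is 55.8% beside 48.2% of all genes. At an unadjusted p under 0.05 there were 6 higher and 9 lower members, 14.0% and 20.9% of the 43, beside 8.61% and 10.2% of all genes.

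Of 135 measured genes that act on or beside these receptors, in 7 lists, 8 rose and 5 fell, which is 9.63% beside 3.69% of all genes. The lists were chosen with earlier results of these data known. Shares of calls also depend on level, since 404 of 9180 genes above the median level rose and 538 fell. Of the 135 genes, 16 were under the lower quartile in both groups, beside 3959 of all 17687. Of 19 measured genes of talin, kindlin and RAP1 activation, 1 rose and 1 fell, with a median of 0.17. FERMT1, the epithelial kindlin gene, fell from 10.56 and 10.55 to 8.80 and 9.47, a change of -1.42 (adjusted p = 0.0269, limma, and 0.0616 with a replicate block). RAP1GAP, which encodes an inactivator of the integrin-activating GTPase RAP1, rose from 3.10 and 3.09 to 4.37 and 4.39 (change 1.285, adjusted p = 0.0158, limma). Its DMSO level was under the lower quartile, so the size of that change depends on the bottom of the range. Of 16 measured focal adhesion adaptors and actin linkers, 3 rose and 1 fell, with a median of 0.05. The paxillin relative LPXN, or leupaxin, rose by 1.93 (adjusted p = 0.00881), the actin assembly factor gene VASP by 1.51 (adjusted p = 0.00881) and LIMS1, which encodes the ILK partner PINCH-1, by 1.06 (adjusted p = 0.0300, limma, and 0.0665 with a replicate block). The scaffold gene NEDD9 had a change of -1.59 (adjusted p = 0.00855, limma). LPXN measured 11.25 and 10.84 in DMSO and 13.24 and 12.71 in MK-8776, without overlap.

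Of 19 measured kinase and signalling genes downstream of integrins, 0 passed in the limma fit, with 8 at an unadjusted p under 0.05. Of these 8, 5 were higher and 3 lower, 26.3% and 15.8% of the 19, beside 8.61% and 10.2% of all genes. The 2 of the 19 with the largest change were RAC2, the GTPase gene of blood cells, at 0.83 (adjusted p = 0.170), and the kinase gene SRC at 0.765 (adjusted p = 0.0828, limma), the latter with a DMSO level under the lower quartile. Of 22 measured matrix ligands, 2 rose and 0 fell, and 9 of the 22 were under the lower quartile in both groups. THBS1, the thrombospondin gene, measured 6.42 and 5.06 in DMSO and 11.91 and 12.74 in MK-8776. SPP1, which encodes osteopontin, a ligand of VLA-4 and of ITGAV integrins, measured 5.70 and 7.53 in DMSO and 9.01 and 9.18 in MK-8776. The SPP1 change of 2.48 (adjusted p = 0.0344, limma) missed the threshold with a replicate block (0.0612), and its DMSO arrays lay apart by more than the gap to MK-8776, so it was 1.565 without DMSO replicate 1 and 3.395 without DMSO replicate 2.

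Of 26 other leukocyte adhesion receptors, 2 rose and 1 fell, with a median of 0.21. CD36, a scavenger receptor that binds thrombospondin, rose from 5.45 and 4.94 to 7.05 and 7.48 (change 2.07, adjusted p = 0.00744, limma). ADGRE2, an adhesion G protein-coupled receptor of myeloid cells, rose from 9.35 and 9.43 to 10.62 and 10.84 (change 1.34, adjusted p = 0.0158, limma). HMMR, a hyaluronan-binding protein that also acts on the mitotic spindle, fell from 8.32 and 8.30 to 6.65 and 6.93 (change -1.52, adjusted p = 0.0105, limma).

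**Figure D4:**
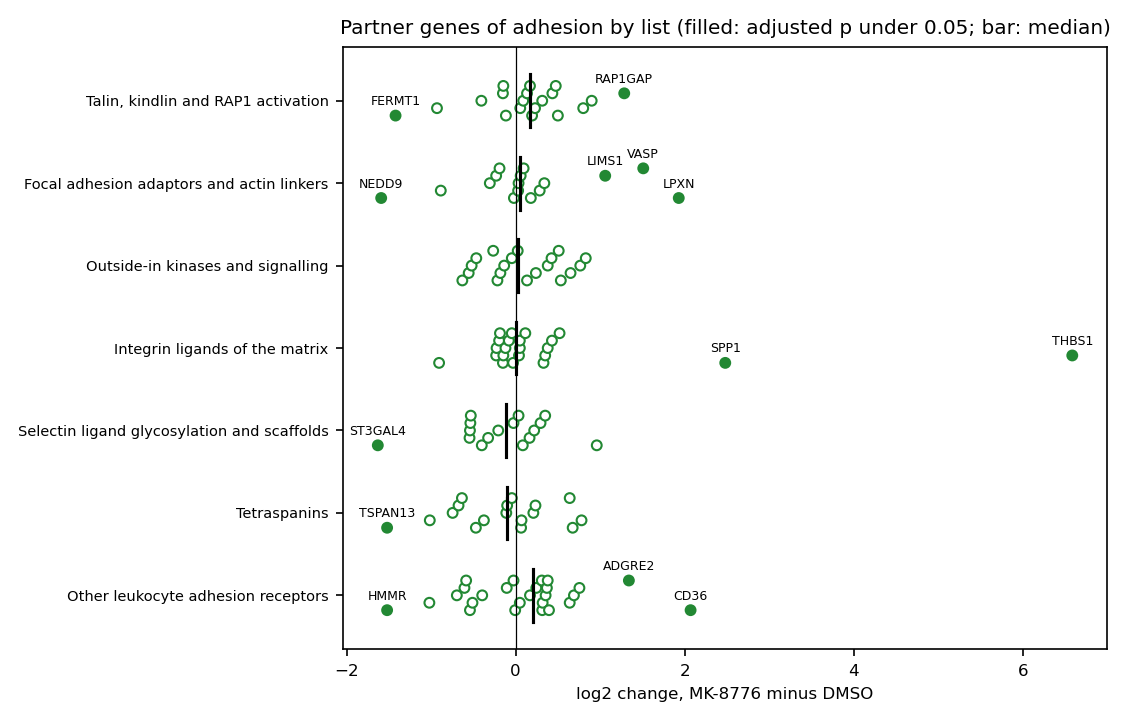
Log2 change (x axis, MK-8776 minus DMSO) of each measured gene in 7 lists of adhesion partners (rows); filled points passed at an adjusted p under 0.05 and bars are list medians. Named points mark the 13 calls, with THBS1 the farthest to the right, and every list's median lies between -0.115 and 0.21.

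The cell type markers were read beside these results. Of 8 promyelocyte markers 6 were measured, with MPO at 16.09 and 16.27 in DMSO and 14.81 and 15.36 in MK-8776 (adjusted p = 0.0514, limma). Of the 6, 2 fell, 0 rose and 4 did not pass. CTSG and PRTN3, both primary granule protease genes, fell, with changes of -2.20 and -2.005. The protease relative AZU1 (change -1.20), the eosinophil-type ribonuclease gene RNASE2 (0.25) and the proteoglycan gene SRGN (0.09) did not pass. The list's summed level ran from 17.51 to 17.63 in DMSO and from 17.10 to 17.56 in MK-8776. The summed level of 8 endothelial markers ran from 9.09 to 9.19 and from 9.54 to 9.67, with 0 calls in limma (1 at an unadjusted p under 0.05). Such sums follow the brightest genes of a list, here EGFL7 (change 0.67), and 4 of the 8 were higher and 4 lower. KDR and TEK lay under the lower quartile in both groups. The sum of 7 lymphoid markers ran from 11.63 to 11.89 and from 12.53 to 12.64, with NKG7 the brightest, while 2 of the 7 were higher and 5 lower. Changes were 1.225 for NKG7 and -1.38 for CD3E, both past the threshold, and MS4A1 and CD3G lay under the quartile. Of 6 epithelial markers KRT18 rose by 1.075, and 3 had an unadjusted p under 0.05 in limma, all upward. KRT8, the brightest, had a change of -0.495, and 4 of the 6 were higher and 2 lower. The sums ran from 10.92 to 11.15 and from 10.80 to 11.01, with CDH1 under the quartile. Of 5 fibroblast markers 0 passed in limma (1 at an unadjusted p under 0.05), with sums from 8.35 to 8.53 and from 8.13 to 8.47, and LUM under the quartile. The part of these markers in the changes of ITGAL, ITGA4 and SELPLG was not tested.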

How the data were processed

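Total RNA of 2 DMSO and 2 MK-8776 samples was measured on Affymetrix arrays. The deposited values are log2 expression, 1 per feature and array, made with RMA by the authors on build hg38, per the submitters' processing notes. The sources used here do not give settings, and the log2 scale was read from the values. There are no detection calls, and the number of arrays limits the precision. RMA makes arrays alike in distribution, so changes are relative to other genes.

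Of 21448 features, 17709 had 1 gene symbol, 0 several and 3739 none. The feature with the highest mean was kept for 20 genes with several, leaving 17687 genes, none of the members among the 20. Values were tested with limma 3.58.1 in R 4.3.3 (lmFit, eBayes, two-sided, no filter), with Benjamini-Hochberg adjustment and a call at an adjusted p under 0.05. It had 2 residual and 6.30 prior degrees of freedom, and the script was tested on simulated data. An exact permutation test of 2 against 2 cannot go below 0.333. Members and lists were chosen with earlier results of these data known. Per-array values are given for members with an unadjusted p under 0.05 or a change of at least 0.5, and of each other list the calls, up to 4, or otherwise the 2 largest changes are named. ITGAX, ITGA5, ITGB1, ITGB2, CD44 and CD9 were given in full after their values were seen. Array correlations were 0.993 within each group and 0.981 to 0.989 between groups.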

Additional observations from a re-analysis of the deposited data

How the results depend on the processing

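Besides the reported fit, 12 alternatives were run, and 24 of 833 values for 71 genes (all measured members, and the genes named from the other lists) changed sign, in 18 genes that did not pass. Of these, SELP was at -0.01375 after quantile normalization (the cause was not tested), and the other 23 came from leaving out 1 array. Their ranges over the 4 such fits were CD44 from -0.075 to 0.245, ICAM2 from -0.22 to 0.05, ITGA2 from -0.005 to 0.505, ITGA5 from -0.545 to 0.455, ITGA8 from -0.24 to 0.16, ITGA9 from -0.26 to 0.15, ITGAE from -0.025 to 0.675, ITGAV from -0.045 to 0.535, ITGAX from -0.19 to 0.46, ITGB2 from -0.065 to 0.915, ITGB3 from -0.255 to 0.175, ITGB5 from -0.27 to 0.01, ITGB6 from -0.065 to 1.045, RNASE2 from -0.155 to 0.655, SELE from -0.35 to 0.29, SRGN from -0.095 to 0.275 and VCL from -0.42 to 0.15. Members that rose numbered 2 with a variance trend, 2 with that trend and robust estimation and 2 among genes above the median level, in each case CD63 and ICAM1. Leaving out any 1 array (DMSO replicate 1 or 2, MK-8776 replicate 1 or 2) gave from 0 to 0 members that rose and from 0 to 0 that fell, in limma fits with 1 residual degree of freedom fewer, where unadjusted p under 0.05 was reached by 3 to 7 members upward and 5 to 8 downward; over all genes these fits called 0 and 0 genes without a DMSO array, 7 rises without MK-8776 replicate 1, and 23 rises and 11 falls without MK-8776 replicate 2. The changes there ran from -2.205 to -1.725 for SELPLG, -1.755 to -1.595 for ITGAL, -1.73 to -1.37 for ITGA2B, -1.455 to -1.255 for ICAM4, -1.14 to -0.90 for ITGA4 and 0.98 to 1.31 for CD63. The replicate numbers are tied to no shared day or culture in the labels. A replicate block left 1 member that rose (ICAM1, in place of CD63) and 4 that fell (all but ITGA4), with a correlation of 0.139 between the deviations of same-numbered arrays, and took the calls over all genes to 133 rises and 176 falls. The same block ended the calls of PPBP and of the marker genes NKG7 (adjusted p = 0.0613, limma), CD3E (0.0663) and KRT18 (0.0813). MPO passed with quantile normalization (adjusted p = 0.0467, limma), above the median level (0.0319) and with the variance trend (0.00258). With quantile normalization or over all features 4 members fell. SELPLG, ITGAL, ITGA2B and ICAM4 passed in all 8 alternatives that kept the 4 arrays.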

Other observations

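Changes of members that neighbour each other on a chromosome were set side by side. ITGA7 and CD63 lie 7134 bases apart on chromosome 12, with changes of -0.645 (did not pass) and 1.145. ITGAM, ITGAX and ITGAD, 22298 and 10335 bases apart on chromosome 16, had changes of -0.69, 0.135 and 0.58, of which 0 passed in limma (1 at an unadjusted p under 0.05).

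Some adhesion partner genes that were lower in MK-8776 missed the threshold by little. CD99, a leukocyte transmigration receptor gene, measured 13.05 and 13.44 in DMSO and 12.09 and 12.36 in MK-8776 (adjusted p = 0.0537, limma). APBB1IP, which encodes RIAM, the link from RAP1 to talin, was at 7.94 and 7.58 in DMSO and 6.66 and 7.0 in MK-8776 (adjusted p = 0.0738, limma). PARVB, an ILK-binding parvin gene, was at 8.12 and 8.11 in DMSO and 7.12 and 7.34 in MK-8776 (adjusted p = 0.0591, limma). These were picked after their values were seen. In the same limma fit, genes in both directions had adjusted p not far above theirs. TPST1 (change 0.96, adjusted p = 0.0850, limma), SRC (0.765, 0.0828) and PTPRC (0.755, 0.0896) were higher, and MFGE8 (-0.905, 0.0805) was lower.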
